A study of Homo sapiens with 6 samples.

Results

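Open chromatin at the transcription starts of protein-coding genes was examined in PANC1, a human pancreatic ductal carcinoma cell line, where DNaseI cut the genome densely enough to give a peak after gemcitabine and no overlapping peak in vehicle-treated cells. The regions were chosen by that rule: a peak of the gemcitabine DNaseI list, no base shared with any peak of the vehicle list, and a protein-coding start within 1 kb of the peak's edge in the Gencode annotation of hg19 (GRCh37), with the mitochondrial genome left out. It gave 1555 regions of the 10695 peaks in the gemcitabine list, and 4064 peaks of that list lay at starts in all. These gemcitabine-only start regions lay at the starts of 1765 of 19820 protein-coding genes, which is 8.91% of them. Because the regions were selected on the DNaseI contrast itself, what the peak lists say about them is given as description, and the mRNA of the genes at their starts is the independent readout.

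All cells were PANC1, and the labels name charcoal-stripped and dialyzed serum for their culture. The control groups received vehicle, 0.1% DMSO, and the treated groups received gemcitabine at 50 nM, and the RNA was taken after 48 hours. DNaseI sequencing comprised 1 library per condition and RNA sequencing 2 libraries per condition, described as biological replicates. The line is a single tumour line, so every value concerns this one genetic background. The RNA libraries held 13194533 to 15766237 fragments assigned to genes, and 3 fragments corresponded to 0.19 to 0.227 CPM, counts scaled to library depth. The epithelial keratins KRT7, KRT8 and KRT18 were abundant, between 336 and 1660 FPKM (fragments scaled to transcript length and library depth), as was vimentin at 385 to 476 FPKM. KRT19 and SOX9, which also mark ductal cells, were lower, at 3.05 to 6.91 FPKM. The acinar, endocrine and leukocyte markers lay at 0.313 FPKM or less in every library, and VWF of endothelial cells at 0.254 FPKM or less. Of the 2 fibroblast markers COL1A1 read 864 to 1100 FPKM and DCN 3.02 to 6.3 FPKM.

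DNaseI cuts DNA that is not wrapped around nucleosomes, and the start of an active gene usually carries such a stretch, where general and sequence-specific transcription factors and RNA polymerase II bind. Many human promoters are CpG islands, rich in GC boxes bound by Sp and KLF factors and in CCAAT, ETS and NRF1 sites, and are open in most cell types. Open regions far from starts are more often bound by factors such as AP-1 and TEAD and differ more between cell states. Gemcitabine is a deoxycytidine analogue that is phosphorylated in the cell, is built into DNA and inhibits ribonucleotide reductase, so that replication stalls and the DNA damage response is engaged.

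The sequences of 9 regions are shown, each as up to 200 bases nearest to the centre of the peak that lie in no exon of a protein-coding transcript, read 5′ to 3′ on the strand of the named gene from the GRCh37 genome. Capitals mark the letters of any motif searched. The first 3 regions had the highest peak scores (the MACS score, which rises as the peak's p-value falls). They lie at PPP1R13L, chr19:45909156-45909355, minus strand, with capitals for a RUNX match and a GC box, at FIS1, chr7:100895598-100895797, minus strand, and at VPS26C, chr21:38639864-38640063, minus strand, both with a CCAAT box.
PPP1R13L: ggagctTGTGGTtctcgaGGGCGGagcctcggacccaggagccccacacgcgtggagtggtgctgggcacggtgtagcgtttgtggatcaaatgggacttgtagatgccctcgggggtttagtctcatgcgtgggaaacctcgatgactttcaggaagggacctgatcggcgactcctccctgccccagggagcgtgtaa
FIS1: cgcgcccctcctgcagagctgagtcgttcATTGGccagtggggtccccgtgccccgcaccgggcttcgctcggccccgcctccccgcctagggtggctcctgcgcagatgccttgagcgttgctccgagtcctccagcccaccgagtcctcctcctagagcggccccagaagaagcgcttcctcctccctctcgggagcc
VPS26C: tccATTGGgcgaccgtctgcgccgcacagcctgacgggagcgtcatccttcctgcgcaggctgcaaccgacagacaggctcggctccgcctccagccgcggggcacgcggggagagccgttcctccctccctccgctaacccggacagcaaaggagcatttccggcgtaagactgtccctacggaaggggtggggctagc

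The next lies at CD70, chr19:6604115-6604314, minus strand, a gene with one of the largest called rises in mRNA among those with a mean of at least 1 CPM and no overlap of the conditions. Its capitals are an AP-1 match followed by a CCAAT box.
CD70: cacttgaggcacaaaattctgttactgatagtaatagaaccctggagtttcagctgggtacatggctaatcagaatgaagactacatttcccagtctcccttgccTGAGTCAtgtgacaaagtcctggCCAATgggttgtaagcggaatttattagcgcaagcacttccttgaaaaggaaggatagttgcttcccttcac

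Another 3 lie at the genes with the largest called falls under the same limits. They are DCAF4, chr14:73393252-73393451, plus strand, with GC boxes and an E-box, LRFN4, chr11:66623596-66623795, plus strand, with CCAAT boxes, and ZBTB12, chr6:31870026-31870225, minus strand, with GC boxes and a CCAAT box.
DCAF4: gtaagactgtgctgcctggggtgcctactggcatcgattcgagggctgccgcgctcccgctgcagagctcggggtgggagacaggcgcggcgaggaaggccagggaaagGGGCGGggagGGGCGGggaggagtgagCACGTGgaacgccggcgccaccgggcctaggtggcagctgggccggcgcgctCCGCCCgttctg
LRFN4: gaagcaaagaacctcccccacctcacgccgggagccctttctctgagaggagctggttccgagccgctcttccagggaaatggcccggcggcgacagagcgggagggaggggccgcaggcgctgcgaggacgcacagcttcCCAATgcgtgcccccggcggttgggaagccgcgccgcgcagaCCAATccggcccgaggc
ZBTB12: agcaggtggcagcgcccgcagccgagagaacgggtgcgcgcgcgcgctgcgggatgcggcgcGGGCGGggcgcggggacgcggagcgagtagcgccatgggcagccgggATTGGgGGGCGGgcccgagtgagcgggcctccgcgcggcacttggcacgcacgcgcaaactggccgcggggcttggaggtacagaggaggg

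The last pair was chosen after its values were seen, because both genes are NF-kB targets whose regions hold NF-kB letters. They are IRF1, chr5:131831715-131831914, minus strand, in an intron, and IL6, chr7:22766566-22766765, plus strand, where the 200 bases end at the base before an annotated start and also hold a CCAAT box.
IRF1: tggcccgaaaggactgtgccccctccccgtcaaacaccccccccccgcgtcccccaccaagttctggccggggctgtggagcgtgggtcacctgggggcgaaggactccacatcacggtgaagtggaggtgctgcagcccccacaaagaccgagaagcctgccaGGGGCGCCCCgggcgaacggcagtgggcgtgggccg
IL6: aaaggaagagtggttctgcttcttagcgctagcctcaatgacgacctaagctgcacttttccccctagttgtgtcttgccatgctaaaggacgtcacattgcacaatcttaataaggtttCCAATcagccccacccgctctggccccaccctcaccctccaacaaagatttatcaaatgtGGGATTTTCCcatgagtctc

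Seen in sequence, the gemcitabine-only start regions were CpG-rich promoters. In the 300 bp around their centres the median GC content was 63.0% (quartiles 55.0% and 69.0%, n = 1555) against 62.0% in the 2509 start peaks of the gemcitabine list that overlap a vehicle peak, called shared start peaks here, and 43.0% in the 3597 gemcitabine-only peaks away from starts. The median ratio of observed to expected CpG was 0.772 in the gemcitabine-only start regions, 0.811 in the shared start peaks, 0.21 in the gemcitabine-only peaks away from starts and 0.708 in windows around all 78500 annotated starts. The start regions thus resembled other promoters in these measures far more than they resembled the other gemcitabine-only peaks. The CpG ratio of single regions ran from 0 to 1.35, so the class also held regions without any CpG.

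Of the 17 motifs searched on both strands of those windows, the GC box (GGGCGG) was the most frequent and lay in 931 of 1555 regions, 59.9% (95% Wilson interval 57.4 to 62.3), against 64.3% (62.4 to 66.2) of shared start peaks, 11.0% (10.0 to 12.1) of gemcitabine-only peaks away from starts and 51.5% of all starts. The CCAAT box (CCAAT) lay in 35.2% (32.9 to 37.6) of the regions and in 44.2% (42.3 to 46.2) of shared start peaks. ETS letters (CCGGAAG) lay in 13.9% (12.3 to 15.7) and 18.7% (17.2 to 20.3), and NRF1 letters (GCGCATGCG) in 2.70% (2.00 to 3.63) and 5.34% (4.53 to 6.29). These 4 motifs were therefore less frequent in the gemcitabine-only start regions than in the shared start peaks, with intervals that do not meet for any of the 4. In the vehicle-only start peaks GC box letters lay in 57.9% (54.7 to 61.0) and CCAAT letters in 35.1% (32.2 to 38.2), both close to the gemcitabine-only regions. ETS letters lay in 16.5% (14.3 to 19.0) of them, between both classes, and NRF1 letters in 5.21% (3.98 to 6.81), close to the shared peaks.

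AP-1 letters (TGANTCA), bound by FOS and JUN proteins, lay in 102 regions, 6.56% (5.43 to 7.90), against 5.74% (4.90 to 6.72) of shared start peaks, 5.51% of all starts and 24.9% (23.5 to 26.3) of the gemcitabine-only peaks away from starts. TEAD letters (GGAATG) lay in 14.1% (12.5 to 16.0) of the regions and in 23.5% (22.2 to 25) of the distal gemcitabine-only peaks. NF-kB letters, by the consensus of that name, lay in 13.1% (11.5 to 14.8) of the regions, 11.8% (10.6 to 13.1) of shared start peaks, 12.7% of all starts and 6.01% (5.27 to 6.83) of the distal ones. The letters of the AP-1 and NF-kB motifs were thus about as frequent as in shared start peaks, and the intervals for both overlap. A match says only that the letters occur, and GC-rich windows hold GC-rich motifs more often by composition.

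**Figure D1:**
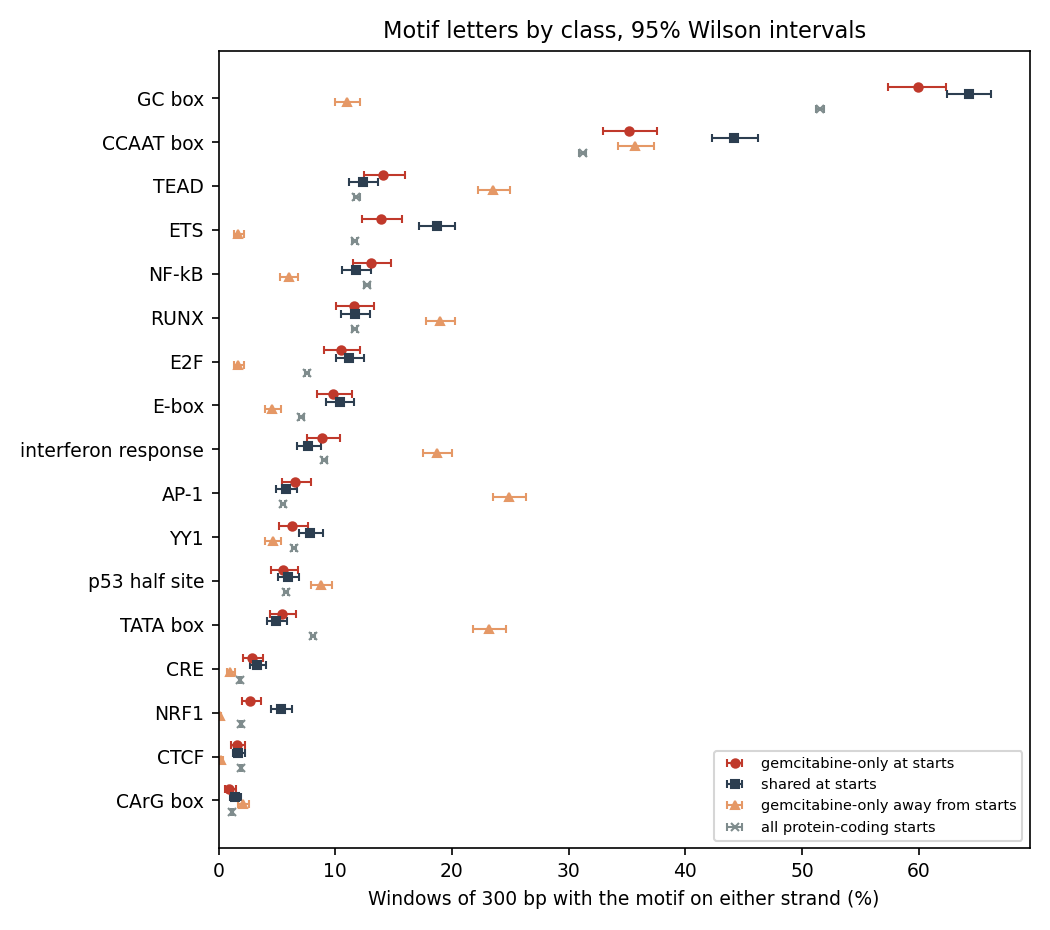
Share of 300 bp windows around peak centres that hold each motif on either strand (x axis, %), for the 1555 gemcitabine-only start regions, the 2509 shared start peaks, the 3597 gemcitabine-only peaks away from starts and windows around all 78500 annotated protein-coding starts, with 95% Wilson intervals. The GC box leads in the start classes (59.9% and 64.3%) and is rare in the distal gemcitabine-only peaks (11.0%), where AP-1 letters are frequent (24.9% against 6.56%).

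Sequence also varied with the direction in which the mRNA of the gene moved, a measure that the rule did not use. The 80 regions at genes called higher in RNA sequencing had a median CpG ratio of 0.568 and the 73 at genes called lower had 0.840. GC box letters lay in 35 of the 80, 43.8% (33.4 to 54.7), and in 49 of the 73, 67.1% (55.7 to 76.8). AP-1 letters lay in 12 of the 80, 15% (8.79 to 24.4), and in 5 of the 73, 6.85% (2.96 to 15.1), and NF-kB letters in 12, 15% (8.79 to 24.4), and in 3, 4.11% (1.41 to 11.4). The intervals of the 3 motifs overlap between the groups except for the GC box. Among the named genes with AP-1 letters in the window were CD70, P2RY6, RAPGEF3 and ISG20, called higher, and FAS, POLD3 and GPC3, not called. Those with NF-kB letters included IRF1 and TUBA1A, called higher, and DCAF4, AMER1 and SOWAHC, called lower.

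The regions sat on the starts rather than beside them. A start lay inside 1356 of 1555 regions, 87.2% (85.5 to 88.8), and inside 95.1% (94.2 to 95.9) of the shared start peaks. The centre of the region lay a median of 40 bp upstream of the nearest start, shown as -40 bp with quartiles of -189.5 and 74 bp, and within 250 bp of it in 68.5% of regions against 74.5% of shared start peaks. The centre fell outside protein-coding transcripts in 37.0% (34.7 to 39.5) of regions, in an intron in 32.9% (30.6 to 35.2), in the untranslated part of an exon in 24.8% (22.7 to 27.0) and in a coding exon in 5.27% (4.27 to 6.50). Shared start peaks were more often centred outside transcripts, 44.2% (42.3 to 46.2), and less often in introns, 24.4% (22.8 to 26.1). The regions served the start of a single gene in 1331 cases, and 12.7% (11.1 to 14.4) had starts on both strands against 20.1% (18.5 to 21.7) of shared start peaks. This share counts any starts within 1 kb, in whatever order they lie, so it is not a count of bidirectional promoters. The shared start peaks were also wider, with a median of 1080 bp against 956 bp.

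**Figure D2:**
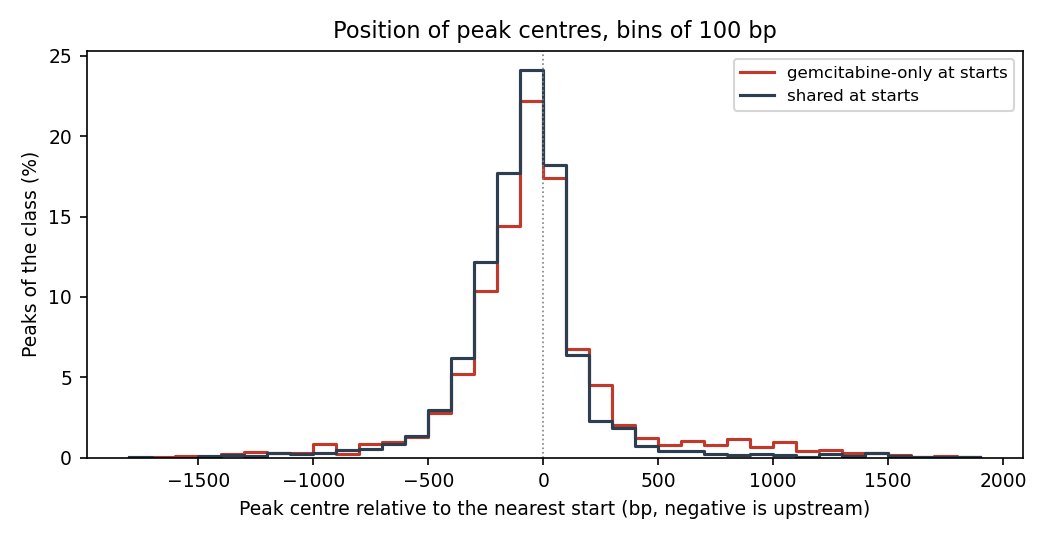
Position of the peak centre relative to the nearest protein-coding start (x axis, bp, negative is upstream) as the share of each class in bins of 100 bp (y axis, %). Both classes peak in the 100 bp just upstream of the start, with 22.2% of the 1555 gemcitabine-only start regions and 24.1% of the 2509 shared start peaks.

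The vehicle list had no peak in the neighbourhood of nearly all these starts. For 1523 of 1555 regions, 97.9% (97.1 to 98.5), no vehicle peak lay within 1 kb of any of their starts, and the nearest vehicle peak was a median of 56878 bp away. The regions were chosen to share no base with a vehicle peak and most contain a start, so the rule largely sets this share. Only 36 regions had a vehicle peak under 1000 bp from their edge. The closest were at BCL7C, with 33 bp between the peaks, NDEL1, with 78 bp, and FRS3 and PRICKLE4, with 102 bp, and the shared start peaks just outside the rule overlapped a vehicle peak by 7 bp at RABEPK, 30 bp at SIX5 and 49 bp at CFL1 and MUS81. At the distance limit, the regions of CLEC19A, EPPK1 and MTG2 lay 991, 985 and 982 bp from their starts, and the first gemcitabine-only peaks beyond it lay 1006, 1019 and 1020 bp away.

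The regions were weak peaks. Their score had a median of 65.55 (quartiles 56.17 and 80.25) and a highest value of 166.3, against a median of 90.94 and a highest value of 414.03 in the shared start peaks. The vehicle-only start peaks, the mirror class of 959 in the other list, had a median of 63.11, and the gemcitabine-only peaks away from starts 62.81. Scores such as those at EXOC7 (50.04) and ASS1 (50.04) lay at the limit of 50 below which a peak is not listed. A promoter with a score just under that limit in vehicle cells is therefore absent from the vehicle list, and the files do not give the DNaseI read depth of either library. The share of gemcitabine-only peaks among the start peaks of the gemcitabine list was 64.3% for scores of 50 to 60 (550 of 856), 49.2% for 60 to 80, 31.5% for 80 to 100, 15.7% for 100 to 150 and 1.05% at 150 or more (3 of 285). Those 3 strongest regions were the ones at PPP1R13L and POLR1G, FIS1 and VPS26C.

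**Figure D3:**
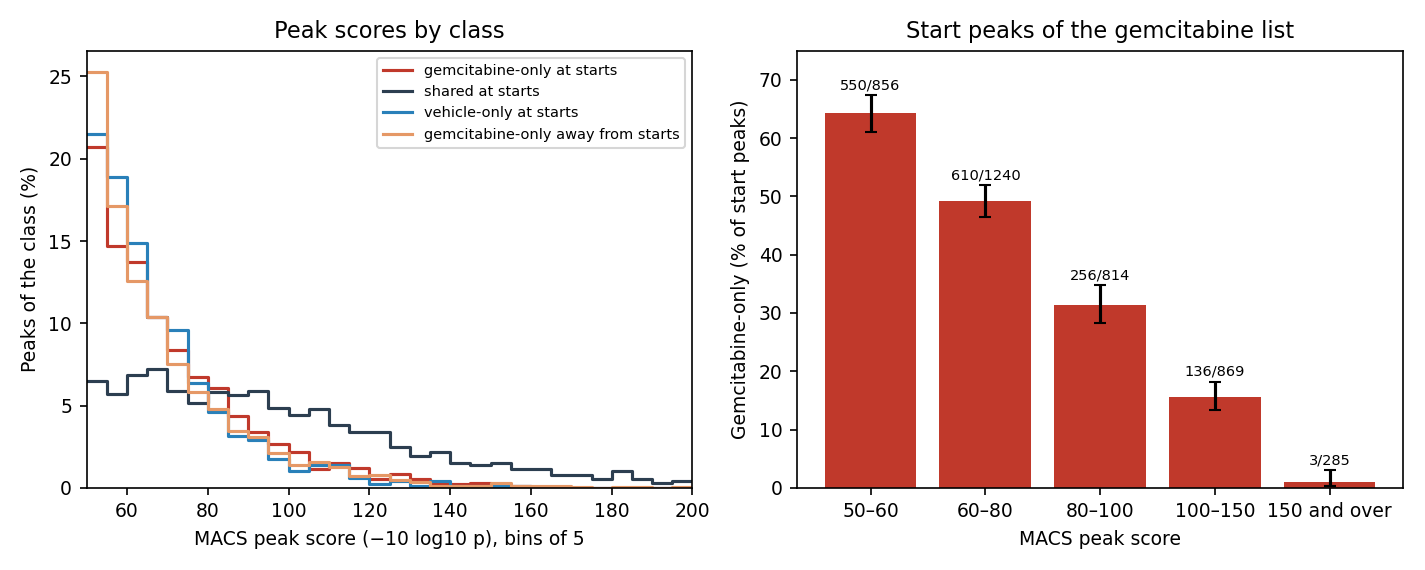
Left, share of peaks (y axis, %) by MACS score in bins of 5 (x axis, drawn up to 200, which leaves out 77 shared start peaks and 4 distal gemcitabine-only peaks) for 4 classes of peak. Right, gemcitabine-only peaks as a share of all start peaks of the gemcitabine list (y axis, %, with 95% Wilson intervals and counts) by score, falling from 64.3% to 1.05%.

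Starts held a smaller share of the gemcitabine-only peaks than of the shared ones. Of 5152 gemcitabine-only peaks 30.2% (28.9 to 31.5) lay at starts, against 45.3% (44 to 46.6) of 5543 shared peaks and 23.6% (22.4 to 25) of the 4059 vehicle-only peaks. By chromosome, the regions made up 26.3% of the start peaks on chromosome 19 (100 of 381) and 54.0% on chromosome 4 (68 of 126), with 38.3% over the genome.

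The genes at these regions were already transcribed in vehicle cells. Of their 1765 genes 1717 were in the RNA table, and the median of their mean vehicle level was 19.5 FPKM (quartiles 7.48 and 50.1), against 27.2 FPKM for the 2904 genes with a shared start peak and no gemcitabine-only one, 25 FPKM for the 971 with a vehicle-only start peak and 0.56 FPKM for the 13233 with no start peak in either list. The medians of single libraries for the 1717 genes were 19.8 and 19.2 FPKM in vehicle and 20.5 and 20.8 FPKM in gemcitabine. At least 1 FPKM was reached in vehicle by 91.1% of the genes, and at least 0.1 FPKM by 96.5%. Of the genes with no start peak in either list, 46.8% reached 1 FPKM and 58.5% reached 0.1 FPKM. The RNA is counted per gene and not per start, and 126 of the 1765 genes also had a shared or vehicle-only peak at another start.

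A gemcitabine-only start region was more frequent at genes with more mRNA, up to a plateau. It was 1.06% (0.827 to 1.37) of genes under 0.1 FPKM in vehicle, 5.18% (4.24 to 6.31) from 0.1 to 1 FPKM, 10.9% (9.90 to 11.9) from 1 to 10 FPKM, and 14.8%, 15.5% and 14.6% in the 3 classes from 10 to 30, 30 to 100 and above 100 FPKM. The share with a shared start peak was higher in each of these 3 classes than in the one before, at 23.7%, 29.4% and 35.7%. The share with a vehicle-only start peak alone was 8.18%, 9.79% and 9.83% in them, so it levelled off too. A plateau was thus not particular to the gemcitabine-only regions.

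**Figure D4:**
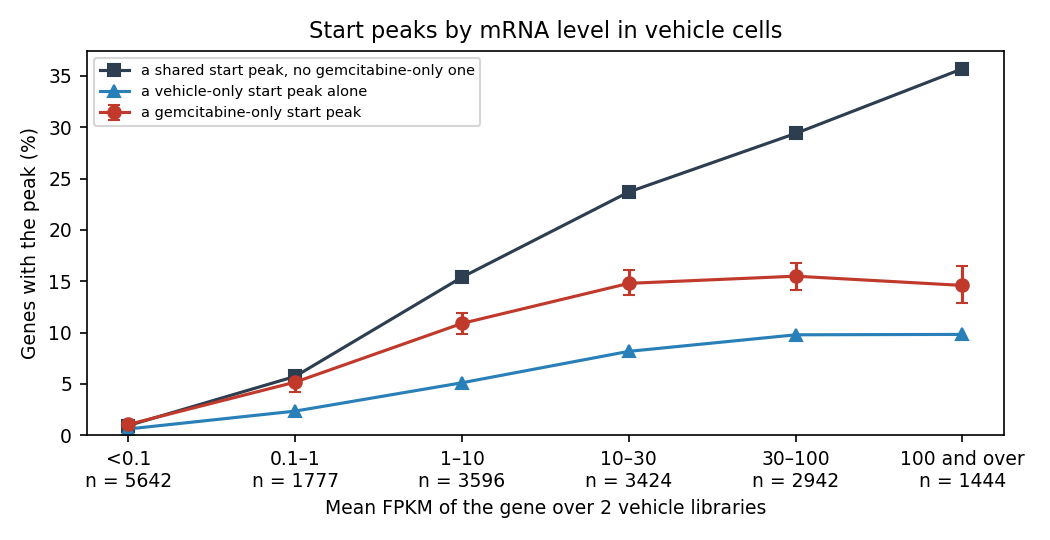
Share of protein-coding genes with a given kind of start peak (y axis, %) by the mean FPKM of the gene in the 2 vehicle libraries (x axis classes, number of genes below each). The gemcitabine-only share (95% Wilson intervals) levels off near 15% from 10 FPKM upward, whereas the shared share reaches 35.7%. The vehicle-only share also levels off, with 9.79% and 9.83% in the last 2 classes.

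RPL37, a protein of the large ribosomal subunit, had 3800 and 3820 FPKM in vehicle and 4130 and 3560 in gemcitabine, and its region at chr5:40834885-40835954 scored 67.38. B2M, the light chain of MHC class I, had 3230 and 3010 FPKM in vehicle and 3830 and 3880 in gemcitabine, with a region score of 51.36. GAPDH, the glycolytic enzyme, had 2790 and 2520 FPKM in vehicle and 2810 and 2540 in gemcitabine, with a region score of 90.25. TMSB10, an actin-binding peptide, and FTL, the ferritin light chain, were the other 2 of the 5 most abundant genes whose starts had no vehicle peak within 1 kb. None of these 5 met the call rule of the RNA test that follows.

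The first question for the RNA was whether genes at these regions changed in mRNA more often than others. A gene was called when edgeR's quasi-likelihood test passed an adjusted p of 0.05, with 14854 genes in the adjustment, with a fold above 1.5, a mean of at least 0.1 FPKM in 1 condition and a difference of at least 1 FPKM. Of the 1690 genes tested at gemcitabine-only start regions, 81 were called higher after gemcitabine, 4.79% (3.87 to 5.92), beside 5.69% of all genes tested, and 71 were called lower, 4.20% (3.34 to 5.27), beside 4.42%. The median log2 fold change was -0.000661 over these genes and 0.00692 over all tested. The shares of calls were thus close to the background in both directions. With scaling by library totals the split was 130 higher and 51 lower at these regions and 1164 higher and 418 lower over all genes tested, whose median shifted to 0.117. In bulk RNA, fewer cells with a transcript and less of it per cell cannot be told apart. Of the 2870 tested genes with a shared start peak and no gemcitabine-only one, 133 (4.63%) were called higher and 154 (5.37%) lower. Their median was -0.0243. Of the 956 tested with a vehicle-only start peak and no other, 44 (4.6%) were called higher and 45 (4.71%) lower, with a median of -0.0356.

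Counted from the other side, a gemcitabine-only start region was present at 9.93% (8.06 to 12.2) of the 816 protein-coding genes called higher, 11.3% (9.02 to 14.0) of the 631 called lower and 12.1% (11.5 to 12.7) of those tested and not called. No start peak in either list was present at 68.4% of the genes called higher, 57.2% of those called lower and 60.7% of those not called. Splitting the genes by the score of their region gave 4.65%, 5.69%, 3.15% and 4.52% called higher for scores of 50 to 60, 60 to 80, 80 to 100 and 100 or more, and 4.48%, 2.99%, 5.24% and 6.45% called lower. Across these 1690 genes, which are not independent replicates, score and log2 fold change had a Spearman rho of -0.0066. The values of both conditions did not overlap for 1255 of the 1690 genes, 74.3%, against 70.8% of all genes tested.

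The 12 genes named among the 81 called higher were those with the largest folds, with at least 1 CPM on average and the conditions apart. CD70, a TNF family ligand that binds CD27 on lymphocytes, had 0.645 and 0.569 FPKM in vehicle and 3.05 and 2.98 in gemcitabine. Its vehicle values rest on 8 and 11 fragments. Both treated libraries lay above both controls, and the log2 fold change was 2.06 ± 0.37 (SE) with an adjusted p of 5.54e-04 by edgeR. Its region, chr19:6603853-6604438 with a score of 67.84, spans the start, and the AP-1 match printed above lies in it.

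TMEM52B, a transmembrane protein, and OLR1, the oxidized LDL receptor, share one wide region of 2310 bp with a score of 61.47. TMEM52B had 1.88 and 1.38 FPKM in vehicle and 6.88 and 5.93 in gemcitabine, and OLR1 had 15.3 and 15.8 in vehicle and 50.8 and 50.6 in gemcitabine. The conditions did not overlap for either gene, and the log2 fold changes were 2.09 ± 0.24 (adjusted p = 1.21e-05 by edgeR) and 1.48 ± 0.083 (adjusted p = 3.54e-08 by edgeR). The genes lie on opposite strands, and their annotated exons share no base.

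P2RY6, a receptor for UDP, had 0.396 and 0.440 FPKM in vehicle and 2.42 and 1.74 in gemcitabine (log2 fold change 2.03 ± 0.40, adjusted p = 0.00113 by edgeR). RAPGEF3, a cAMP-activated exchange factor for RAP GTPases, had 0.718 and 1.00 FPKM in vehicle and 2.09 and 3.41 in gemcitabine (1.89 ± 0.27, adjusted p = 7.29e-05 by edgeR). Both were scarce in vehicle and rose in both treated libraries, and these FPKM rest on 7 to 27 fragments per vehicle library.

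CFB, complement factor B of the alternative pathway, had 20.8 and 18.0 FPKM in vehicle and 54.5 and 51.8 in gemcitabine (1.57 ± 0.11, adjusted p = 2.14e-07 by edgeR), although 87.4% of its exon bases are shared with a readthrough gene on the same strand. IL18, an inflammasome-processed cytokine, had 16.8 and 17.1 FPKM in vehicle and 49.8 and 41.2 in gemcitabine (1.40 ± 0.10, adjusted p = 2.35e-07 by edgeR). Neither gene's conditions overlapped. The region of IL18 at chr11:112034186-112035126 scored 54.13, close to the lowest score listed, whereas that of CFB scored 80.64.

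The other genes named by the same rule were S100A1, a calcium-binding protein, ELANE, neutrophil elastase, and TUBA1A, an alpha-tubulin, with log2 fold changes of 1.34 ± 0.43, 1.31 ± 0.29 and 1.30 ± 0.092. TUBA1A went from 14.2 and 15.9 FPKM to 40.3 and 42.3. The S100A1 call rests on 8 to 21 fragments a library (adjusted p = 0.0248 by edgeR) and was lost without either vehicle library, without gemcitabine replicate 1 and in DESeq2, where the log2 fold change over all refits stayed between 1.13 and 1.67. The ELANE call was lost without vehicle replicate 1 and in each limma fit, with log2 fold changes between 0.77 and 1.46 over the refits.

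The 12 genes named among the 71 called lower were taken by the same rule. NCL, nucleolin, which works in ribosomal RNA synthesis and processing, had 935 and 899 FPKM in vehicle and 451 and 483 in gemcitabine. Both treated libraries lay far below both controls, with a log2 fold change of -1.05 ± 0.076 and an adjusted p of 2.05e-07 by edgeR. Its region, chr2:232328750-232329765, scored 83.07 and lay 177353 bp from the nearest vehicle peak.

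DCAF4, a substrate receptor of CUL4 ubiquitin ligases, had 7.52 and 5.62 FPKM in vehicle and 2.09 and 2.35 in gemcitabine (log2 fold change -1.46 ± 0.16, adjusted p = 8.21e-06 by edgeR). LRFN4, a synaptic adhesion-like membrane protein, had 116 and 95.7 FPKM in vehicle and 45.5 and 60.9 in gemcitabine (-1.16 ± 0.073, adjusted p = 7.50e-08 by edgeR). ZBTB12, a BTB zinc finger protein, had 5.61 and 4.90 FPKM in vehicle and 2.34 and 2.79 in gemcitabine (-1.14 ± 0.18, adjusted p = 1.79e-04 by edgeR). No value of a treated library reached a control value in any of the 3 genes. The region of LRFN4 does not contain its start, from which it lies 576 bp away, and at 50.12 it was among the weakest.

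AMER1, a negative regulator of WNT signalling, fell from 2.91 and 2.67 FPKM to 1.25 and 1.53 (-1.12 ± 0.12, adjusted p = 6.10e-06 by edgeR). RPIA, ribose-5-phosphate isomerase of the pentose phosphate pathway, fell from 13.2 and 11.8 FPKM to 6.12 and 6.41 (-1.09 ± 0.11, adjusted p = 4.10e-06 by edgeR). The remaining named genes that fell were CAPN15, DERL3, AGPAT5, MID1IP1, POLR1G and SOWAHC, with log2 fold changes from -1.06 to -0.96. DERL3 shares 87.3% of its exon bases with SMARCB1 and POLR1G 49.8% with ERCC1 on the opposite strand, and the counting is not stated to use strand, so that reads of such pairs cannot be told apart.

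**Figure D5:**
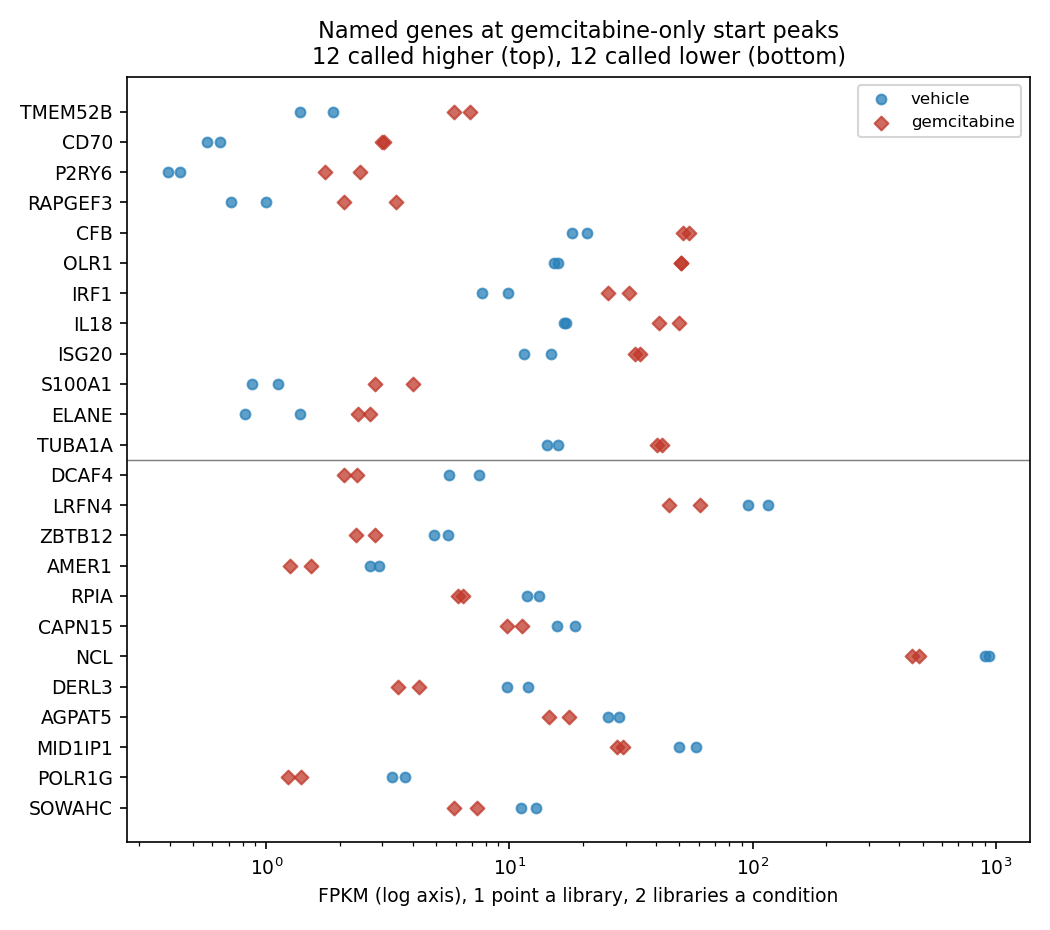
FPKM of the 24 named genes at gemcitabine-only start regions in each RNA library (x axis, log scale, 1 point a library, 2 libraries a condition), with 12 genes called higher above the line and 12 called lower below it. In each of the 24 genes both gemcitabine points lie on the same side of both vehicle points, as genes were named only if their conditions were apart.

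Of the 28 listed targets of NF-kB, a factor of inflammatory and stress signalling, 5 had a gemcitabine-only start region (BIRC3, CCL2, IL6, IRF1 and TNFAIP2) and 4 of these 5 were called higher, beside 15 of 25 tested on the whole list. The median log2 fold change was 1.06 both over the 5, which are part of the list, and over the list, and the difference was not tested. The lists were compiled with results of these data known, and no test of a list was made.

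IRF1, a transcription factor induced by NF-kB and interferon, had 7.69 and 9.89 FPKM in vehicle and 30.9 and 25.5 in gemcitabine, and its region at chr5:131831129-131832499 scored 88.33. IL6, a secreted cytokine, had 11.9 and 11.5 FPKM in vehicle and 30 and 30.4 in gemcitabine, and its region at chr7:22766208-22767271 scored 114.55. Both rose in each treated library, with log2 fold changes of 1.44 ± 0.13 (adjusted p = 1.34e-06 by edgeR) and 1.06 ± 0.11 (adjusted p = 5.34e-06 by edgeR). The BIRC3 call was lost in each limma fit. BIRC3, an inhibitor of apoptosis in TNF receptor complexes, and TNFAIP2 also rose, by 1.23 ± 0.11 (adjusted p = 1.20e-06 by edgeR) and 0.77 ± 0.065 (adjusted p = 7.49e-07 by edgeR) on the log2 scale. CCL2, a monocyte chemokine, did not pass the test, with 132 and 111 FPKM in vehicle and 127 and 140 in gemcitabine (0.03 ± 0.083, adjusted p = 0.804 by edgeR), although its region scored 105.43. The windows of IRF1, CCL2, IL6 and TNFAIP2 held NF-kB letters and that of BIRC3 did not, so the letters occurred both with and without a call.

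Of 34 interferon-stimulated genes 6 had a region, and 3 of them were called higher, beside 17 of 32 tested on the list. ISG20, an exonuclease, had 14.8 and 11.5 FPKM in vehicle and 32.9 and 34.4 in gemcitabine (1.34 ± 0.13, adjusted p = 3.56e-06 by edgeR), and ISG15, a ubiquitin-like modifier, had 34.3 and 32.1 in vehicle and 69.4 and 66.9 in gemcitabine (0.93 ± 0.093, adjusted p = 3.51e-06 by edgeR). Both genes were apart between the conditions, and their regions were weak, with scores of 54.96 and 56.06. OAS1, with the largest fitted rise of any gene called at these regions, lay under the limit of 1 CPM. This gene, which senses double-stranded RNA, was called on 2 and 3 fragments against 14 and 9, at or near the floor of 3 fragments, and its call was lost in several refits, among them DESeq2 and those without either vehicle library or gemcitabine replicate 1. DTX3L and PARP9, partners in ADP-ribosylation, share a bidirectional region at chr3:122282833-122283956 and neither was called (log2 fold changes -0.05 and 0.33), nor was HERC5 (0.31).

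Of 27 p53 targets 5 had a region, and 2 of the 5 were called higher, beside 9 of 27 on the list. SESN2, a stress-induced inhibitor of mTORC1 signalling, had 2.56 and 2.88 FPKM in vehicle and 5.59 and 5.26 in gemcitabine (0.88 ± 0.13, adjusted p = 1.07e-04 by edgeR). GADD45A, a growth arrest gene, had 11.0 and 12.6 FPKM in vehicle and 24.1 and 22.7 in gemcitabine (0.78 ± 0.11, adjusted p = 5.84e-05 by edgeR). In both the treated libraries were apart from the controls. FAS, a death receptor, and BAX, a pore-forming BCL2 protein, had log2 fold changes of 0.30 and 0.26 with adjusted p of 0.00772 and 0.0114 by edgeR, under the fold limit of 1.5, and PPM1D, a phosphatase that dampens the damage response, had 0.06.

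Apoptosis genes had a region in 8 of 36 cases, and BIRC3 alone of the 8 was called higher, beside 4 of 33 tested on the list. By edgeR 6 of the 8 had an adjusted p under 0.05. That held for 41.7% of all genes tested at the regions and 38.5% of all genes tested. APAF1, the apoptosome scaffold, had a log2 fold change of 0.46 ± 0.12 and MCL1, a survival protein, 0.23 ± 0.079, and CASP2, CASP8 and CASP9 had -0.19, 0.03 and 0.27. The region of CASP9 had a vehicle peak 423 bp away. Of the genes that mark the state of the line, KLF5 and ZEB1 had a region, with log2 fold changes of -0.09 and -0.25 and no call.

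Of 43 replication genes 8 had a region, and of the 7 tested none was called in either direction by edgeR or DESeq2. The list had 0 called higher and 5 lower of 42 tested by edgeR. An unadjusted p under 0.05 was seen for 4 of the 7. Over the 1690 genes tested at the regions, 866 had such a p in the edgeR refit with RLE size factors. The median log2 fold change of the 7 replication genes was -0.209. TIPIN, a fork protection factor, had the lowest value, -0.58 ± 0.11, and ORC3, a subunit of the origin recognition complex, the highest, 0.33 ± 0.071. Of 59 damage checkpoint and repair genes 14 had a region and 1 was called, MSH6, a mismatch recognition protein, with 13.8 and 12.2 FPKM in vehicle and 8.46 and 10.6 in gemcitabine (-0.69 ± 0.11, adjusted p = 2.45e-04 by edgeR). That list had 3 called higher and 2 called lower of 59 tested. About 20.4% of the exon bases of MSH6 are shared with FBXO11 on the opposite strand, and the call was lost in limma. ATM and WEE1, kinases of the damage and mitotic entry checkpoints, had 0.25 and -0.47, and for ATM the FPKM went the other way, with 18.1 and 21.4 in vehicle and 15.7 and 16.1 in gemcitabine. The region of ATM was among the stronger ones, at 119.39.

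Mitosis genes had a region in 5 of 36 cases and none of the 5 was called by edgeR or DESeq2, with 2 of 5 at an unadjusted p under 0.05. The whole list had 1 called higher and 2 called lower of 36 tested by edgeR. CDC20, an activator of the anaphase-promoting complex, had 148 and 122 FPKM in vehicle and 106 and 105 in gemcitabine, a log2 fold change of -0.35 ± 0.069, and AURKB, the kinase of the chromosomal passenger complex, had 0.25 ± 0.066. FOS was the single gene with a region among 24 AP-1 and immediate early genes, and it fell from 266 and 214 FPKM to 147 and 142 (-0.73 ± 0.067, adjusted p = 1.52e-06 by edgeR), with a wide region of 2556 bp that scored 102.09. Its list had 4 called higher and 7 called lower of 23 tested.

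Genes listed for ribosome biogenesis had a region in 11 of 45 cases, and 3 of the 11 were called lower, beside 19 of 43 tested on the list. NOL3, whose role in this process was not examined, counts among the 11 and was not called (-0.21 ± 0.1). NOP58, a core protein of box C/D snoRNPs, had 97.7 and 88.7 FPKM in vehicle and 54.7 and 66.4 in gemcitabine (-0.70 ± 0.068, adjusted p = 2.71e-06 by edgeR), and RRP1 had 28.9 and 26.4 in vehicle and 17.8 and 16.9 in gemcitabine (-0.70 ± 0.089, adjusted p = 2.69e-05 by edgeR). POLR1G, a subunit of RNA polymerase I, went from 3.71 and 3.28 FPKM to 1.23 and 1.39 (-0.97 ± 0.25, adjusted p = 0.00777 by edgeR), and this call was lost without either vehicle library, in DESeq2 and in limma without a filter. The median over the 11 was -0.337 and over the list -0.52. The 8 ribosomal protein genes with a region, by contrast, had no call in either direction by edgeR or DESeq2, with 5 of 8 at an unadjusted p under 0.05 and a median of -0.155. Their whole list had 0 called in either direction of 80 tested by edgeR.

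Of 18 genes of gemcitabine transport and metabolism 2 had a region, and the list had 1 called higher and 2 called lower of 17 tested. SLC29A2, the equilibrative nucleoside transporter ENT2, carries the fourth strongest region of all, chr11:66138872-66139917 with a score of 149.53, and its mRNA had 11.6 and 11.7 FPKM in vehicle and 6.29 and 6.36 in gemcitabine. It fell by 0.92 on the log2 scale (SE 0.098, adjusted p = 5.89e-06 by edgeR), so here the peak was listed after gemcitabine alone and the mRNA was lower after gemcitabine. CMPK1, the kinase that makes the diphosphate of gemcitabine, had -0.17 ± 0.068 and did not pass the test.

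Zinc finger genes named ZNF had a region in 61 of 512 cases, 11.9% (9.39 to 15), with 3 called higher and 1 called lower of 59 tested, beside 7 higher and 13 lower of 409 tested on the list. ZNF396, ZNF688 and ZNF774 rose by 0.97 ± 0.21, 0.87 ± 0.24 and 0.60 ± 0.20, and ZNF692 fell by 0.88 on the log2 scale. Each of the 4 calls was lost in some refits, those of ZNF396, ZNF688 and ZNF774 without vehicle replicate 2 and that of ZNF692 in limma. The ZNF774 call was also lost without vehicle replicate 1, without gemcitabine replicate 1 and in DESeq2, and the ZNF688 call in DESeq2. For ZNF774 the FPKM of the conditions overlapped, with 3.52 and 3.17 in vehicle and 6.12 and 3.26 in gemcitabine. Histone genes had a region in 4 of 90 cases, and the 2 that were tested, H3-3A and H3-3B, which encode the replication-independent H3.3, had 0.20 and -0.16, with no call by edgeR or DESeq2 and both at an unadjusted p under 0.05. Their whole list had 4 called higher and 7 called lower of 27 tested by edgeR.

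Few genes at the strongest regions were called. Of the 12 genes at the 10 regions of highest score none was called higher. POLR1G, SLC29A2 and SLBP, the histone mRNA stem-loop binding protein, were called lower. Of the 155 tested genes at regions with a score of 100 or more, 7 (4.52%) were called higher and 10 (6.45%) lower. Over all genes tested 5.69% were called higher and 4.42% lower, and the difference was not tested. SLBP had 109 and 108 FPKM in vehicle and 80.8 and 73.7 in gemcitabine (-0.65 ± 0.066, adjusted p = 4.22e-06 by edgeR), a call that was lost with library totals and in limma. TACC3, the spindle protein that shares the region of SLBP, had 73.1 and 67.2 in vehicle and 84.4 and 76.4 in gemcitabine (0.09 ± 0.066, adjusted p = 0.311 by edgeR). Genes that share one region could thus differ in mRNA, as did POLR1G and PPP1R13L, an inhibitor of p53-family proteins, which had 36.5 and 30 FPKM in vehicle and 34.7 and 50.5 in gemcitabine (0.29 ± 0.072). FIS1, a mitochondrial fission protein, and VPS26C, of the retriever complex, had 0.15 ± 0.076 and -0.01 ± 0.084. GPC3, a glypican whose region scored 145.18, was scarce in every library, at 0.110 to 0.527 FPKM.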

How the data were processed

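RNA sequencing of PANC1 cells gave 2 vehicle and 2 gemcitabine libraries, and DNaseI sequencing 1 library per condition. The authors aligned RNA reads to hg19 with TopHat2 2.0.8 and used Cuffdiff 2.0.2 on Gencode 15 to make the deposited values, an expected count of fragments per gene and library. The deposited FPKM values come from the same table. The authors called DNaseI peaks per condition with MACS at p = 1e-05, and each deposited peak carries a score, 10 times its p-value on a negative log10 scale. The aligner of the DNaseI reads, the MACS version and the read depth are not given in the sources used here.

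Peaks were joined to 78568 protein-coding starts of 19820 genes (Gencode 44 lifted to GRCh37). The annotation differs from that of the authors. Expected counts, 86.8% of them whole, were rounded, a gene needed a sum of 10 fragments in the 4 libraries to enter, and edgeR 4.0.16 (TMM, quasi-likelihood test, Benjamini-Hochberg adjustment) was run over all genes in R 4.3.3 and first tested on simulated data. DESeq2 1.42.0 and limma 3.58.1 on log2(FPKM + 1) and log2(FPKM + 0.1) were alternatives. Shares carry 95% Wilson intervals (scipy 1.17.1), which, like the floor of 3 fragments, cover counting error only. Motifs were searched on both strands, with overlaps between motifs allowed.

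Named genes were at most 12 called in each direction by fold change (at least 1 CPM on average, above 0 in each library, conditions apart), genes at the 10 highest scores, listed genes, regions at the limits and the 5 highest FPKM. Some items that these rules select are not reported here. The members and gene lists were chosen with earlier results of these data known. Nothing links the replicate index in the RNA table to the numbering in the sample titles, and replicates carry the table's index here.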

Additional observations from a re-analysis of the deposited data

How the results depend on the processing

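The peaks have 1 library per condition and no replicate, so a peak in one list alone cannot be told apart from a peak just under the limit of 50 in the other, and peak depth is unknown. Of 80 alternatives with a value, 47 kept it. Limiting the regions to scores of at least 100 left 139 regions, 7 genes called higher, 10 called lower, a median of -0.02 on the log2 scale and 100.0% of regions with no vehicle peak at a start. That share was 98.8% with distance taken from the peak centre, 99.1% for starts within 500 bp, 96.7% within 2 kb and 99.9% for regions with no vehicle peak within 1 kb. The last setting selects on nearly the same property, and the rule for the regions largely sets the share in each.

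The median log2 fold change of the genes was -0.0102 with 1 start per gene, 0.0062 with no filter, 0.00724 with filterByExpr, 0.109 with library totals in edgeR, and 0.111, 0.125 and 0.101 with limma on log2(FPKM + 1), on log2(FPKM + 0.1) and without a filter. With library totals 130 genes were called higher and 51 lower, beside 81 and 71 with TMM (1164 and 418 over all genes, beside 845 and 656), and the median over all genes moved to 0.117. Limma called 83 higher and 34 lower on log2(FPKM + 1), beside 847 and 311 over all genes, and 89 and 38 on log2(FPKM + 0.1), beside 878 and 335. Without a filter limma called 0 of all genes in either direction, with 384 genes at the regions higher and 148 lower at an unadjusted p under 0.05, where edgeR called 81 and 71 and DESeq2 67 and 69. An adjusted p under 0.05 alone gave 340 higher and 364 lower, 41.7% of the genes tested at the regions, beside 2751 and 2975, 38.5%, of all genes tested. The causes were not tested.

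Leaving out 1 RNA library gave 67 to 91 genes called higher, 69 to 93 called lower and medians from -0.00374 to 0.0101. With a replicate block by column index, 79 were called higher and 71 lower, with a median of -0.00153. Same-index libraries had a correlation of deviations of -0.03 over 11334 genes, so this index gave no sign of pairing. It cannot show that the samples were unpaired, as the index is not tied to the sample titles.

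The median GC content was 62.0% in windows of 500 bp and 59.4% over whole peaks. AP-1 letters lay in 3.92%, 10.5% and 19.5% of regions in windows of 200 bp, of 500 bp and over whole peaks, and GC box letters in 47.8%, 71.6% and 83.1%, as longer windows hold more letters.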
